A study of Mus musculus with 12 samples.

Results

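The 10 genes described here, Atf4, Atf5, Ddit3, Trib3, Asns, Chac1, Sesn2, Gdf15, Psat1 and Phgdh, are genes of the integrated stress response. They were chosen by symbol from a table of 50559 mouse genes, and all 10 passed the filter on low counts in every comparison. Retinas were collected on day 28 from C57BL6/J wild-type mice, in 4 groups of 3 RNA-Seq libraries. The IgG group received 30 µg of an isotype control on day 1, and the APB5 group received 30 µg of a rat monoclonal antibody (clone APB5) against mouse PDGFRB, the receptor through which PDGFB recruits pericytes to retinal vessels. The IgG+Mino and APB5+Mino groups were given the same injections and then minocycline, a tetracycline antibiotic, intraperitoneally each day from day 5 to day 27, at a labelled dose of 45 mg/kg. No gene is deleted or transgenic in any group, and the study used mice of both sexes. The question was how the antibody, used in the study to deplete pericytes, and minocycline given on top of it, changed these genes.

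In the integrated stress response, several kinases sense different stresses (GCN2 amino acid shortage, PERK misfolded proteins in the endoplasmic reticulum, PKR double-stranded RNA, HRI heme deficiency and mitochondrial stress) and phosphorylate the translation factor eIF2. General translation then slows while the mRNA of ATF4, which carries short upstream reading frames, is translated more, so that the level of Atf4 mRNA is only one of the inputs to the amount of the protein. ATF4 and its partners switch on genes for amino acid synthesis and uptake, tRNA charging, glutathione turnover and cell death. In the retina the pathway is known from photoreceptor degenerations and from injury of ganglion cells.

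ATF4 and C/EBP proteins bind a composite element whose core is often written TGATGNAA. A window from 250 bases before to 50 bases after each RefSeq start site was searched for this core on both strands, with N standing for any base. It was found for 3 of the 10 genes (30%), against 4.51% of 27025 genes with such a window and 20.2% of 84 other genes of the pathway. These 3 are shown because they carry the core. Sequences are RefSeq's, from a table of build GRCm38.p6, and each was matched once to GRCm39, whose coordinates are given. Capitals mark the core in the printed strand, which runs in the direction of transcription. Asns carried TGATGAAA on its own strand, from -23 to -16 relative to the start, and is shown upstream of its start at chr6:7693210-7693309, minus strand. Chac1 carried TGATGCAA on the opposite strand, from -193 to -186, and is shown at chr2:119181484-119181583, plus strand. Trib3 carried TGATGTAA on the opposite strand downstream of its start, from 15 to 22, and is shown at chr2:152185948-152185977, minus strand.
Asns: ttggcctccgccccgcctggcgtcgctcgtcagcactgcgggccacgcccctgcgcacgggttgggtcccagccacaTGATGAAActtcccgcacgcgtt
Chac1: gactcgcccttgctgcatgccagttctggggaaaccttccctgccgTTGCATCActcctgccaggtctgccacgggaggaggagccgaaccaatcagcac
Trib3: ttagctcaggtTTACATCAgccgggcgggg
The ER stress element, a longer motif bound by ATF6, was in the windows of 0 of the 10 genes, of 8.33% of the other pathway genes and of 0.137% of all genes. A match says that the letters are present, not that the site is bound in retina.

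Total counts per library ranged from 52740545 to 59411044. Levels below are CPM, that is, counts scaled to library size with TMM factors, and a log2 fold change is that of edgeR. A count of 3, taken as the floor, corresponded to 0.0456 to 0.0585 CPM, and all 10 genes lay above it in every library. The labelled tissue showed in its rod markers, whose sum was 14238 to 80037 CPM. Gdf15 was the sparsest, with 9 to 214 counts per library. Divided by transcript length, the IgG means ran from 290 ± 23.4 CPM per kb for Atf4 (SD, n = 3) through 64.2 ± 1.62 for Ddit3, 21.4 ± 0.369 for Atf5, 12.8 ± 0.478 for Psat1, 7.58 ± 0.476 for Asns, 6.68 ± 0.420 for Trib3, 5.62 ± 0.795 for Sesn2, 3.76 ± 0.540 for Phgdh and 1.54 ± 0.278 for Chac1 to 0.339 ± 0.144 for Gdf15. Trib3 and Sesn2 overlapped in their library values on this scale, and the other neighbours did not.

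The libraries were uneven in a way that bears on every result. The library of APB5 replicate 3 had a score of 126.9 on principal component 1 (38.5% of variance), where all others scored -53.8 to 25.6. It was also the highest of the 12 libraries for 8 of the 10 genes. The share of all genes with that library highest was not counted. Xist, transcribed from the inactive X chromosome of females, had at least 47210 counts in every IgG library and in replicate 3 of both APB5 and APB5+Mino, and at most 38 in the other 7, in which Y-linked genes were expressed. Sex and minocycline therefore cannot be told apart in IgG+Mino against IgG, whereas APB5 and APB5+Mino each held 1 library with high Xist, and in both it was replicate 3. Pdgfrb, the target of the antibody, was at 15.4, 16.3 and 38.7 CPM in APB5 and at 12.9 to 20.1 CPM in IgG. The summed markers of pericytes and smooth muscle were at 143, 141 and 498 CPM in APB5 and at 111 to 125 CPM in IgG, with all 3 APB5 libraries above IgG.

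Among the transcription factors, Ddit3 gave the clearest difference. Ddit3, which encodes CHOP, a factor that promotes cell death under lasting stress, was at 64.6, 61.5 and 62.6 CPM in IgG and at 76.8, 52.9 and 55.2 CPM in IgG+Mino. It was at 83.1, 64.6 and 101 CPM in APB5 and at 46.4, 41.9 and 39.8 CPM in APB5+Mino. All 3 APB5+Mino libraries were below each of the other 9. Atf5, a factor related to ATF4 and likewise controlled in translation, was at 38.5, 44.2 and 76.8 CPM in APB5 and at 30.6, 28.01 and 29.9 CPM in APB5+Mino, with IgG close together at 38.3 to 39.6 CPM and IgG+Mino at 32.0 to 37.5 CPM. Again the APB5+Mino libraries were the lowest of the 12.

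With APB5 replicate 3 included, Atf4 itself had the smallest log2 fold change between APB5+Mino and APB5. Without that library its value, -0.43, was larger in size than those of Chac1, Psat1, Asns and Sesn2. Atf4 was at 547, 501 and 466 CPM in IgG, 508, 396 and 426 CPM in IgG+Mino, 483, 468 and 318 CPM in APB5 and 374, 346 and 343 CPM in APB5+Mino. APB5 replicate 3, the highest library for most of the other genes, was the lowest of the 12 for Atf4, and it lay below all APB5+Mino libraries.

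Trib3, a pseudokinase that restrains ATF4 and CHOP in a feedback loop, was at 14.9, 13.9 and 13.1 CPM in IgG and at 13.7, 11.5 and 11.6 CPM in IgG+Mino. It was at 19.9, 15.6 and 13.4 CPM in APB5 and at 10.02, 8.35 and 8.36 CPM in APB5+Mino. The APB5+Mino libraries were the lowest of all 12, and here APB5 replicate 1, not replicate 3, was the highest.

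Of the enzymes, Asns, which makes asparagine, was at 34.9, 39.5 and 37.0 CPM in IgG, 39.2, 31.6 and 34.8 CPM in IgG+Mino, 39.8, 33.3 and 55.5 CPM in APB5 and 28.04, 28.3 and 29.7 CPM in APB5+Mino. Psat1, the second enzyme of serine synthesis from glycolysis, was at 33.0, 35.1 and 32.9 CPM in IgG, 32.3, 30.0 and 32.0 CPM in IgG+Mino, 30.5, 32.7 and 43.0 CPM in APB5 and 27.5, 24.2 and 23.2 CPM in APB5+Mino. In both genes APB5 replicates 1 and 2 lay among the IgG and IgG+Mino libraries or close to them, and APB5+Mino was the lowest group. Phgdh, the first and committed enzyme of the same route, was at 6.79 and 6.04 CPM in APB5 replicates 1 and 2 and at 41.8 CPM in replicate 3. It was at 5.94 to 7.82 CPM in IgG, 5.59 to 7.49 CPM in IgG+Mino and 3.16, 4.19 and 3.84 CPM in APB5+Mino. A single library thus set the APB5 mean of 18.2 ± 20.4 CPM (SD, n = 3).

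Chac1, whose product breaks down glutathione, was at 3.29, 3.36 and 10.9 CPM in APB5 and between 2.14 and 3.16 CPM in the other 9 libraries. Sesn2, which encodes a leucine sensor that holds mTORC1 in check, was at 19.6, 22.3 and 16.8 CPM in IgG, 23.6, 21.4 and 25.5 CPM in IgG+Mino, 26.3, 25.5 and 28.3 CPM in APB5 and 19.2, 20.6 and 19.3 CPM in APB5+Mino. Its 3 APB5 libraries lay closer together than in the other 9 genes. Gdf15, a secreted cytokine of the TGF-β family, was at 0.508, 0.474 and 0.967 CPM in IgG, 0.328, 0.405 and 0.402 CPM in IgG+Mino, 0.904, 0.748 and 3.26 CPM in APB5 and 0.286, 0.176 and 0.207 CPM in APB5+Mino. The APB5+Mino libraries were the lowest of the 12, at 9 to 16 counts each.

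**Figure D1:**
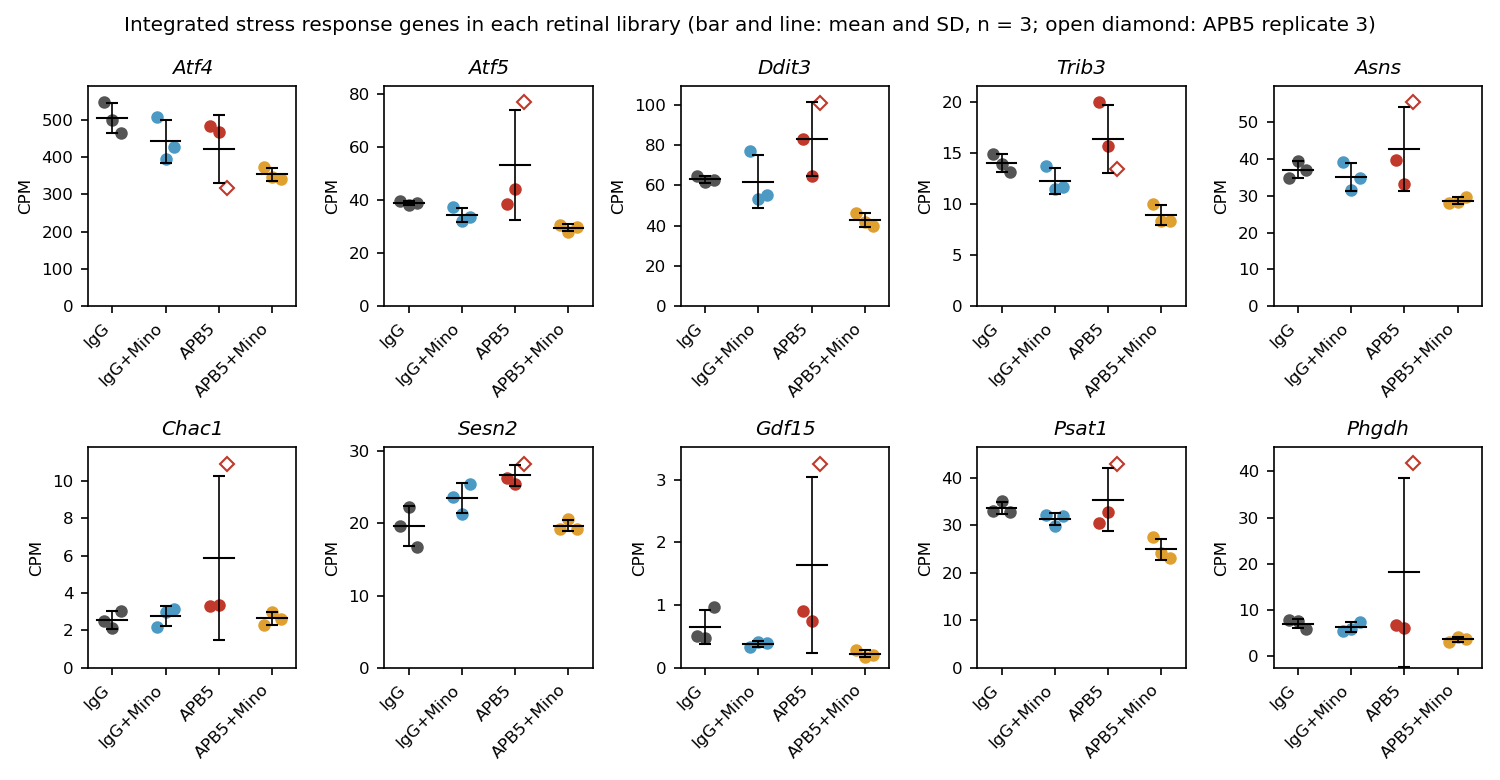
Level of each of the 10 genes in CPM (linear axes) in the 12 retinal libraries, by group. Points are libraries, the bar and line are the mean and SD of 3, and the open diamond is APB5 replicate 3, which is the highest library for 8 genes; the APB5+Mino libraries lie below the other 9 for 7 genes.

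Seen over all 12 libraries, APB5 had the highest group mean for 9 genes and APB5+Mino the lowest for 8. How many of all genes show these orders was not counted. The APB5 means include replicate 3, without which Asns, Psat1 and Phgdh had negative log2 fold changes in APB5 against IgG. For 7 genes, Atf5, Ddit3, Trib3, Asns, Gdf15, Psat1 and Phgdh, all 3 APB5+Mino libraries were below the other 9, which was the case for 8.75% of 21228 genes tested.

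The first comparison asked what the antibody alone did. In APB5 against IgG, 9 of the 10 genes were higher, where 49.6% of all genes were, and Atf4 was lower. With p values from edgeR's quasi-likelihood test, adjusted after Benjamini and Hochberg over all 20350 genes tested, 0 of the 10 passed an adjusted p of 0.05, as did 0% of all genes, and with a log2 fold change of at least 1 as well the count was again 0, against 0%. At an unadjusted p under 0.05 there were 2, Chac1 and Sesn2, against 7.23% of all genes, and DESeq2 called 0 at its adjusted threshold, against 0.482%. The groups were separate and APB5 higher for the same 2 genes, against 7.84% of all genes. The log2 fold changes were 1.19 ± 0.49 (SE) for Chac1 and 0.45 ± 0.15 for Sesn2, each with an adjusted p of 0.664 in edgeR's quasi-likelihood test. Larger but more scattered values were those of Phgdh, 1.36 ± 0.72, and Gdf15, 1.30 ± 0.61. The median over the 10 genes was 0.43, beside -0.0024 over all genes.

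Sex was uneven here too, with high Xist in 3 of 3 IgG libraries and in 1 of 3 APB5 libraries. Within groups, Xist differed most in APB5 and APB5+Mino, where only replicate 3 was high. A fit with Xist as covariate therefore leans on those libraries, and APB5 replicate 3 was far from all others, so it does not cleanly separate sex. With the Xist covariate in a fit of all 12 libraries 4 genes passed an adjusted p of 0.05 in edgeR, against 6.98% of all genes, and 3 passed with the fold threshold, against 5.58%.

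Most of this rested on APB5 replicate 3, without which APB5 and sex cannot be told apart. Without it the median was 0.17, 4 genes were lower, and the log2 fold changes of Phgdh, Psat1 and Asns changed sign, to -0.14, -0.083 and -0.017. Chac1 went from 1.19 to 0.38 ± 0.22 and Gdf15 from 1.30 to 0.33 ± 0.38, while Sesn2 was at 0.41 ± 0.15. The same library was at 644 CPM for the summed 15 markers of microglia and macrophages, against 86.1 and 97.1 CPM in the other APB5 libraries and 63.9 to 101 CPM in IgG, and at 5270.1 CPM for the summed markers of gliosis, against 999 and 1005 CPM in the other two and 658 to 823 CPM in IgG, so that all 3 APB5 libraries were above IgG. Over the 10 markers of gliosis, 9 were higher in APB5 and 8 were separate, with a median log2 fold change of 2.28. The summed rod markers of APB5 replicate 3 were at 14238 CPM, against 54912 and 63983 CPM. All 15 immediate early genes, which respond to stimulation and to tissue handling, were higher in APB5 than in IgG (median 1.03). So were all 10 markers of pigment epithelium (1.30). The immediate early genes summed to 3339 CPM in replicate 3, 674 and 1198 CPM in the other APB5 libraries and 551 to 1935 CPM in IgG. The pigment epithelium markers summed to 1011 CPM, 140 and 153 CPM, and 116 to 196 CPM. Whether these shifts in cell markers and immediate early genes had a part in the levels of the stress genes was not tested. In whole retina, fewer cells of a type and less RNA per cell cannot be told apart.

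The second comparison asked what minocycline did after APB5. In APB5+Mino against APB5, all 10 genes were lower, where 51.5% of all genes were, and for 9 of them the groups were separate, where 23.3% of all genes had APB5+Mino wholly below APB5. The exception was Atf4. Ddit3 and Trib3 fell, by 0.96 ± 0.17 and 0.87 ± 0.18 on the log2 scale, with adjusted p values of 0.0461 and 0.0476 in edgeR's quasi-likelihood test. These 2 were the only ones of the 10 to pass an adjusted p of 0.05, against 4.82% of 20281 genes. Under the fold threshold as well the count was 0, against 1.66%. At an unadjusted p under 0.05 there were 8 genes, all but Atf4 and Chac1, against 35.9% of all genes. DESeq2 placed 8 under its adjusted threshold, against 25.3%, and again Atf4 and Chac1 were the ones it left out. The median of the 10 log2 fold changes was -0.86, beside -0.020 over all genes.

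The largest differences belonged to Gdf15, at -2.70 ± 0.62, and Phgdh, at -2.28 ± 0.76, with adjusted p values of 0.0514 and 0.0873 in edgeR's quasi-likelihood test. Chac1 stood at -1.15 ± 0.49, Atf5 at -0.85 ± 0.26, Asns at -0.58 ± 0.19, Psat1 at -0.51 ± 0.16 and Sesn2 at -0.44 ± 0.098. Atf4 was at -0.26 ± 0.18, with an adjusted p of 0.329 by the same edgeR test. Exact two-sided permutation tests of the 9 separated genes gave the smallest value that 3 libraries against 3 allow, 0.1.

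**Figure D2:**
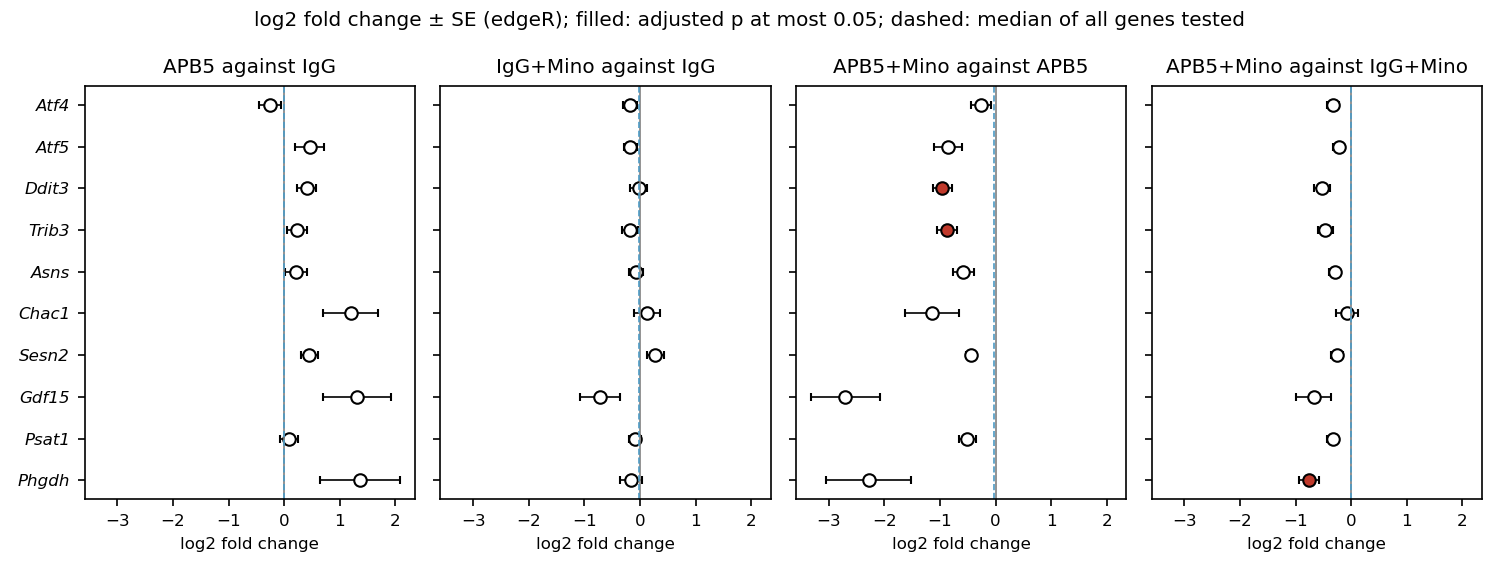
log2 fold change of each gene with its SE (edgeR, n = 3 against 3) in the 4 comparisons of 2 groups; filled circles passed an adjusted p of 0.05 and the dashed line is the median of all genes tested. All 10 genes lie left of 0 in APB5+Mino against APB5, and 9 lie right of 0 in APB5 against IgG.

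Deviations of same-numbered libraries of these 2 groups correlated by 0.134 to 0.182, so a fit blocked on replicate number stands here beside the counts above. What the numbers mark is not stated, and replicate 3 was the 1 library with high Xist in each group. Whether sex gave the correlation was not tested. In the blocked fit 0 of the 10 genes passed an adjusted p of 0.05, as did 0 of all genes. Ddit3 and Trib3 were at -0.94 ± 0.16 and -0.86 ± 0.13, with adjusted p values of 0.0641 each in edgeR's quasi-likelihood test. The 2 calls were also lost without APB5 replicate 1, without any single APB5+Mino library, and with scaling by library size only (adjusted p 0.0516 and 0.0502, edgeR).

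Leaving out APB5 replicate 3 had the opposite effect on the number of calls. Without that library 9 genes, all but Chac1, passed an adjusted p of 0.05 in edgeR's quasi-likelihood test, against 26.6% of all genes in that fit. The differences were smaller, with a median of -0.46. Phgdh went from -2.28 to -0.78 ± 0.16, Gdf15 from -2.70 to -1.73 ± 0.34, Chac1 from -1.15 to -0.33 ± 0.18 and Atf5 from -0.85 to -0.49 ± 0.094. Trib3, at -0.997 ± 0.139, and Atf4, at -0.43 ± 0.087, became larger in size. With replicate 3 left out of both groups, so that only libraries with low Xist remained, 5 genes passed, against 9.36% of all genes, and the median was -0.45. Other settings also raised the number past an adjusted p of 0.05 in edgeR. It was 6 without APB5 replicate 2 (20.1% of all genes, median -0.94), 8 with all 12 libraries in 1 fit (21%) and 9 with the Xist covariate (26.3%). All 10 genes were lower in each of these fits.

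**Figure D3:**
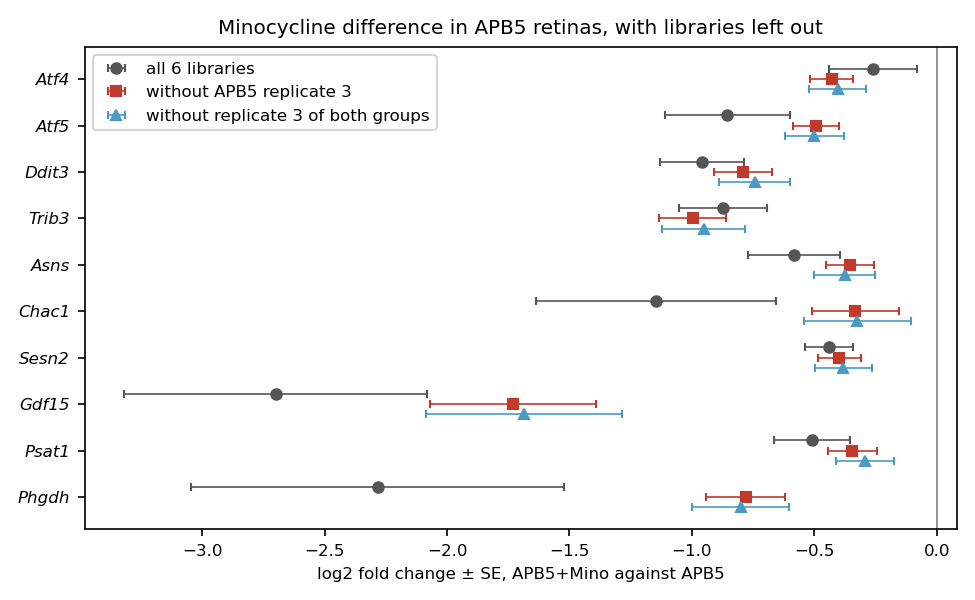
log2 fold change with SE of each gene in APB5+Mino against APB5, from all 6 libraries (circles), without APB5 replicate 3 (squares) and without replicate 3 of both groups (triangles). Every point lies left of 0; Phgdh, Gdf15 and Chac1 move furthest towards 0 when APB5 replicate 3 is left out.

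Other measures moved with this comparison. All 15 microglia and macrophage markers were lower in APB5+Mino than in APB5, with a median log2 fold change of -3.10. Their sum was 31.1 to 35.3 CPM in APB5+Mino. All 15 immediate early genes, which respond to stimulation and to tissue handling, were lower too, with a median of -2.85. Their sum was 314 to 331 CPM in APB5+Mino, against 674 to 3339 CPM in APB5 and 551 to 1935 CPM in IgG, and Egr1, the most abundant, was at 26.3 to 36.2 CPM against 139 to 1089 CPM in APB5. The markers of gliosis (10 of 10 lower, median -1.59), of Müller glia (11 of 14, -0.44), of endothelial cells (10 of 10, -0.61), of pericytes and smooth muscle (10 of 10, -1.32) and of pigment epithelium (10 of 10, -2.43) were mostly lower, while 8 of 10 rod markers were higher, with a median of 0.20. The rod direction rested on APB5 replicate 3, since the rod sums of the other APB5 libraries, 63983 and 54912 CPM, lay above or within the 52450.5 to 56310.5 CPM of APB5+Mino. That replicate also weighed on the size for pigment epithelium. Its sum there was 1011 CPM, against 153 and 140 CPM in the other APB5 libraries and 62.6 to 107 CPM in APB5+Mino. No marker of these lists was at 0 in all libraries. The part of any of them in the result for the stress genes was not tested.

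Transcript length moved with minocycline as well. Between APB5+Mino and APB5 the median log2 fold change was -0.24 for genes in the shortest quartile of transcript length, -0.15 for the next, -0.0017 for the third and 0.19 for the longest. Ddit3 was in the shortest quartile, 7 of the genes were in the next, Sesn2 was in the third and Asns in the longest. After a correction for length and GC content, added after the data were seen, the median of the 10 was -0.69, all 10 remained lower, and Ddit3, at -0.78 ± 0.13, was the 1 gene with an adjusted p under 0.05 (0.0465, edgeR's quasi-likelihood test), against 3.51% of all genes. Under the same correction Trib3 was at -0.68 ± 0.20 and Asns, the longest, at -0.70 ± 0.21. With the replicate block joined to it, 0 passed, and Ddit3 had an adjusted p of 0.0878 in edgeR.

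**Figure D4:**
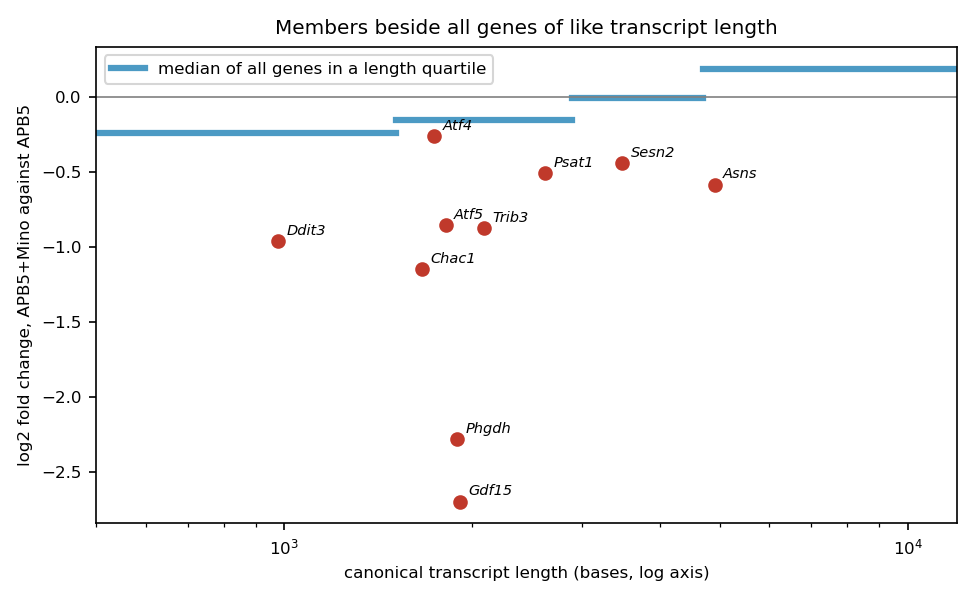
log2 fold change of the 10 genes in APB5+Mino against APB5 plotted over the length of their canonical transcript in bases (log axis), with the median of all genes in each quartile of length as a blue line; the first and last lines are drawn only to the edge of the axis. Each gene lies below the line of its own quartile, Atf4 by the least.

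The third comparison asked what minocycline did without APB5. In IgG+Mino against IgG, 8 of the 10 genes were lower, where 51.4% of all genes were. By edgeR's quasi-likelihood test 0 of the 10 passed an adjusted p of 0.05, against 0.0298% of 20143 genes, and 0 passed with the fold threshold as well, against 0.0298%. At an unadjusted p under 0.05 the count was 0, against 8.37%, and by DESeq2 it was 0, against 0.273%. IgG+Mino lay wholly below IgG for 3 genes, Atf5, Gdf15 and Psat1, where 7.48% of all genes did. The largest difference was that of Gdf15, -0.72 ± 0.36, and it ranged from -0.89 to -0.34 with 1 library left out. The median over the 10 genes was -0.12. All 3 IgG libraries had high Xist and none of the IgG+Mino libraries did, so that none of these differences can be told apart from sex. When the log2 level of Xist entered a joint fit of the 12 libraries, 6 of the 8 lower genes had a positive log2 fold change. That fit leans on replicate 3 of APB5 and of APB5+Mino, so it does not separate sex from minocycline here. Markers moved in IgG+Mino against IgG as well. Of 15 microglia and macrophage markers 14 were lower (median -0.56), as were 9 of 10 endothelial markers (-0.32) and 9 of 10 of pericytes and smooth muscle (-0.25). Of 14 Müller glia markers 10 were higher (0.07). The length quartiles had medians from -0.14 for the shortest to 0.13 for the longest. These shifts cannot be told apart from sex either, and their part was not tested.

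The fourth comparison set APB5 against IgG in minocycline-treated mice. Sex was uneven here as well, since APB5+Mino replicate 3 had high Xist and no IgG+Mino library did. All 10 genes were lower in APB5+Mino than in IgG+Mino, where 51.1% of all genes were, and 9 of them were separate, where 17.2% of all genes had APB5+Mino wholly below. Phgdh fell by 0.76 ± 0.17 on the log2 scale, with an adjusted p of 0.0369 in edgeR's quasi-likelihood test, the 1 gene of the 10 to pass, against 8.09% of 20049 genes. With the fold threshold 0 passed, against 1.23%. At an unadjusted p under 0.05 there were 8 genes, against 29.3%, and DESeq2 placed 5 under its adjusted threshold, against 17.6%. Markers moved here as well: in APB5+Mino all 14 microglia and macrophage markers tested were lower than in IgG+Mino (median -0.70), as were 13 of 15 immediate early genes (-1.02), 10 of 10 rod markers (-0.30) and 9 of 10 markers of pigment epithelium (-0.85), and the length quartiles had medians from -0.18 for the shortest to 0.12 for the longest. Their part in the result was not tested. Ddit3 was at -0.53 ± 0.14, Trib3 at -0.46 ± 0.13, Psat1 at -0.34 ± 0.10 and Atf4 at -0.33 ± 0.10. The call of Phgdh was lost without IgG+Mino replicate 3, without any single APB5+Mino library, with all 12 libraries in 1 fit (adjusted p 0.525, edgeR), with the Xist covariate (0.159) and with the correction for length and GC content (0.0533). Under that correction Ddit3, Trib3 and Psat1 passed instead, 3 genes against 14.1% of all genes.

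Whether minocycline acted differently after APB5 than after IgG was tested by the interaction in a fit of all 12 libraries. Its IgG side compares libraries with high Xist against libraries with low Xist, so the interaction and sex cannot be told apart. The Xist covariate does not settle this, since within groups it leans on replicate 3 of APB5 and of APB5+Mino. The interaction was negative for all 10 genes, where it was negative for 51.9% of all genes. By edgeR's quasi-likelihood test 0 of the 10 passed an adjusted p of 0.05, against 0.0141% of 21228 genes, and 0 with the fold threshold, against 0.0141%. At an unadjusted p under 0.05 there were 9, all but Atf4, against 17.1%, and DESeq2 placed 2 under its adjusted threshold, Ddit3 and Sesn2, against 3.38%, and gave no p for Phgdh. The smallest edgeR values were those of Sesn2, -0.70 ± 0.17 with an adjusted p of 0.144, and Ddit3, -0.93 ± 0.24 with 0.151. With the Xist covariate 3 genes passed in edgeR, against 4.69% of all genes, and the median went from -0.69 to -0.95. The interaction was also negative for 15 of 15 immediate early genes (median -2.65), 15 of 15 microglia and macrophage markers (-2.59) and 10 of 10 markers of gliosis (-1.76), and their part was not tested.

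A comparison of APB5+Mino with IgG was added after the values had been seen, and it confounds both agents and part of the difference in sex. In it 9 of the 10 genes were lower, where 51.8% of all genes were, and 8 were separate and lower, where 23.4% of all genes were. By edgeR's quasi-likelihood test 8 passed an adjusted p of 0.05, all but Chac1 and Sesn2, against 25.8% of 20183 genes, and DESeq2 gave 8 as well, against 30.6%. The edgeR count was 2 without APB5+Mino replicate 2 (5.99% of all genes), 2 without APB5+Mino replicate 3 (7.99%), 2 with the Xist covariate (3.83%) and 1 with all 12 libraries in 1 fit (11.9%). Gdf15, at -1.41 ± 0.37, was the 1 gene also past the fold threshold, against 4.04% of all genes. Phgdh was at -0.94 ± 0.17, Trib3 at -0.66 ± 0.13, Ddit3 at -0.57 ± 0.094 and Atf4 at -0.52 ± 0.10. Chac1 and Sesn2 were at 0.032 ± 0.20 and -0.0044 ± 0.12. In the same comparison 15 of 15 microglia and macrophage markers (median -1.34) and 14 of 15 immediate early genes (-0.999) were lower, and the length quartiles had medians from -0.33 for the shortest to 0.24 for the longest. Their part was not tested. These 5 comparisons share libraries, so their values are not independent of one another.

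Of 109 other genes in 8 lists by role, 107 passed the filter on low counts in APB5+Mino against APB5, of which 46 were higher and 61 lower, with a median log2 fold change of -0.08. By edgeR's quasi-likelihood test 3 rose and 7 fell at an adjusted p of 0.05, beside 4.82% of all genes. All of these calls were lost in the fit blocked on replicate number and without any single APB5+Mino library. Against IgG+Mino, 7 rose and 9 fell, beside 8.09% of all genes, and all 16 were lost without APB5+Mino replicate 2, with all 12 libraries in 1 fit and with the Xist covariate. In APB5 against IgG and IgG+Mino against IgG 0 passed in either direction. Transcript length moved with both comparisons of APB5+Mino, as given above, and its part in the changes of these genes was not tested.

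Upstream, among 16 genes for eIF2 kinases, eIF2 and its phosphatases, 8 were higher and 8 lower in APB5+Mino against APB5. Eif2ak4, which encodes GCN2, the kinase that senses uncharged tRNAs, was at 21.7, 23.6 and 21.9 CPM in APB5 and at 34.0, 42.3 and 40.2 CPM in APB5+Mino, above all 9 other libraries. It rose by a log2 fold change of 0.79 ± 0.11 against APB5 and of 0.58 ± 0.10 against IgG+Mino, with adjusted p values of 0.043 and 0.0191 in edgeR's quasi-likelihood test. Eif2s2, the β subunit of eIF2, fell by 0.50 ± 0.10 against APB5. Ppp1r15a, which encodes GADD34, the stress-induced subunit that brings a phosphatase to eIF2, was at 68.3, 42.0 and 96.4 CPM in APB5 and at 30.0, 27.1 and 30.0 CPM in APB5+Mino. Its log2 fold change was -1.25 ± 0.28, with an adjusted p of 0.0507, and it fell by 0.49 ± 0.11 against IgG+Mino.

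Among 9 tested partner and target transcription factors, 2 fell in APB5+Mino against APB5. Cebpb, a partner of ATF4 and CHOP and also a factor of inflammation, was at 41.3, 24.3 and 99.0 CPM in APB5 and at 5.61, 6.81 and 5.95 CPM in APB5+Mino, with a log2 fold change of -3.16 ± 0.51 with an adjusted p of 0.0447 in edgeR's quasi-likelihood test. Atf3, a factor induced by many stresses and also counted among early response genes, was at 29.1, 16.3 and 37.4 CPM in APB5 and at 9.75, 9.27 and 7.67 CPM in APB5+Mino, with a log2 fold change of -1.63 ± 0.30. Both also fell against IgG+Mino, by 1.44 ± 0.21 and 0.71 ± 0.12. In each gene the APB5+Mino libraries were the lowest of the 12.

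The metabolic targets beyond the 10 genes were divided. Of 10 other enzymes of serine, glycine and one-carbon metabolism, 6 were lower in APB5+Mino against APB5 and 0 passed, while Mthfd1l, a mitochondrial folate enzyme, rose by 0.70 ± 0.10 on the log2 scale against IgG+Mino (adjusted p 0.0125, edgeR's quasi-likelihood test). Of 12 other enzymes of amino acid synthesis, 9 were lower and 0 passed against APB5. Against IgG+Mino, Aldh18a1, an enzyme of proline synthesis, rose by 0.43 ± 0.10, and Got1, the cytosolic aspartate aminotransferase, fell by 0.38 ± 0.085. Of 11 amino acid transporters, 6 were higher and 0 passed against APB5. Slc7a11, the cystine transporter, rose by 0.97 ± 0.25 against IgG+Mino (adjusted p 0.0486, edgeR's quasi-likelihood test). Against APB5 it was at -0.32 ± 0.59, with overlapping libraries.

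The cytosolic tRNA synthetases, 20 genes that ATF4 is known to induce in part, had 11 higher and 9 lower in APB5+Mino against APB5. Iars, for isoleucine, was at 60.3, 67.3 and 43.8 CPM in APB5 and at 105, 104 and 98.4 CPM in APB5+Mino, above all 9 other libraries. It rose by 0.84 ± 0.16 against APB5 and by 0.63 ± 0.091 against IgG+Mino, with adjusted p values of 0.047 and 0.0125 in edgeR's quasi-likelihood test. Eprs, for glutamate and proline, rose by 0.40 ± 0.099 against IgG+Mino. In the list of mitochondrial stress relay and chaperones, of which 11 were tested, Lonp1, a matrix protease, rose by 0.41 ± 0.082 against APB5 and Hspe1, the co-chaperonin of the matrix, fell by 0.74 ± 0.14. Bcl2l11, which encodes the death-promoting protein BIM and is a target of CHOP, fell by 0.49 ± 0.11 against IgG+Mino.

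The arms of the unfolded protein response that run through IRE1 and ATF6, beside the PERK arm that feeds ATF4, had 13 of 18 genes lower in APB5+Mino against APB5, with a median of -0.55. Hspa5, which encodes BiP, the main chaperone of the endoplasmic reticulum, was at 399, 331 and 548 CPM in APB5 and at 188, 190 and 207 CPM in APB5+Mino, the lowest of the 12 libraries. It fell by 1.13 ± 0.20 against APB5 and by 0.53 ± 0.079 against IgG+Mino, with adjusted p values of 0.0461 and 0.0125 in edgeR's quasi-likelihood test. Hsp90b1, which encodes the chaperone GRP94, fell by 0.65 ± 0.14 and Dnajb11, a co-chaperone of BiP, by 0.59 ± 0.12 against APB5. Against IgG+Mino, Hsp90b1 fell by 0.52 ± 0.11, Calr, a calcium-binding chaperone, by 0.52 ± 0.12 and Manf, a secreted factor induced by stress of the reticulum, by 0.47 ± 0.11.

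**Figure D5:**
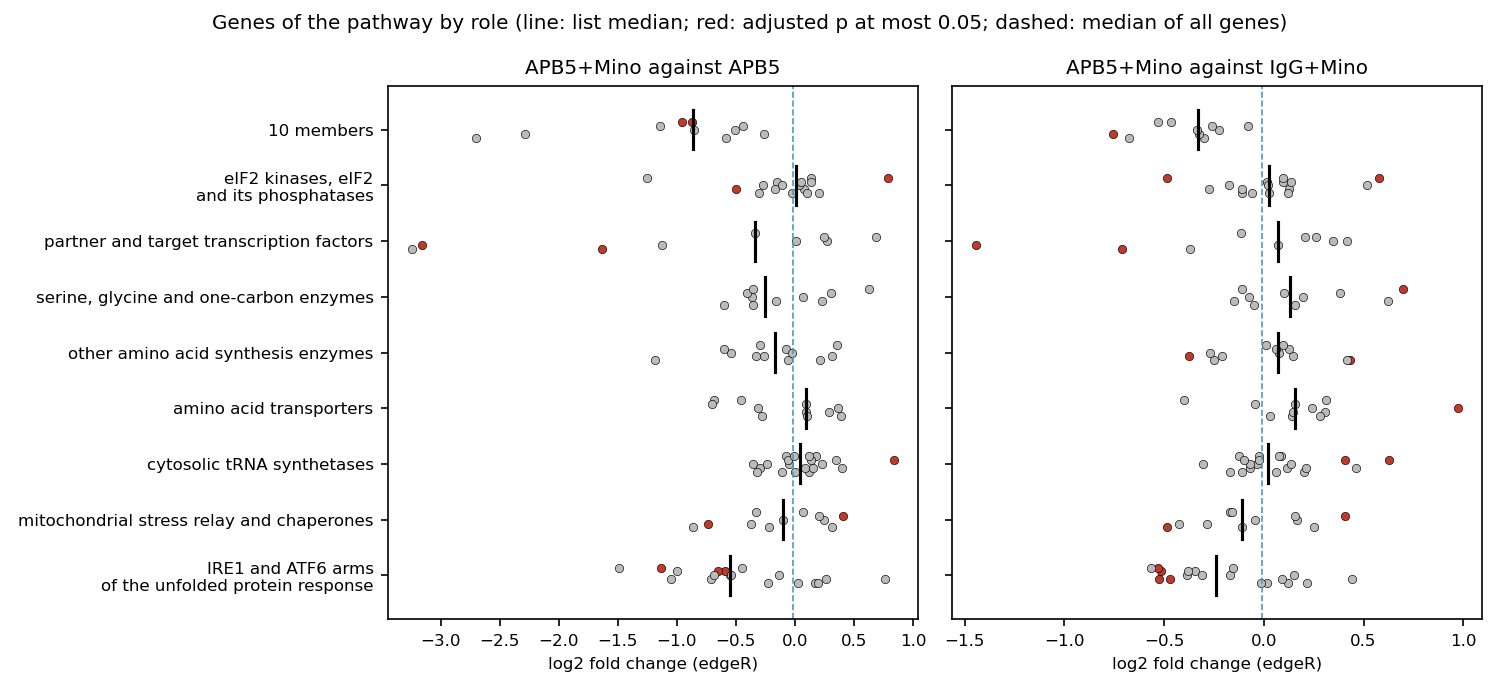
log2 fold change (edgeR) of each gene, by role, with the 10 genes described here in the top line (10 members), in APB5+Mino against APB5 and in APB5+Mino against IgG+Mino; vertical bars are list medians, red points passed an adjusted p of 0.05 and the dashed line is the median of all genes. The 10 genes and the IRE1 and ATF6 arms have the lowest medians on the left, -0.86 and -0.55.

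The 10 genes did not all vary together across libraries. As a description over the 12 libraries, the 45 pairs had a median Pearson's r of log2 CPM of 0.64, and 33 exceeded 0.5. The lowest was between Atf4 and Chac1, at -0.53. Without APB5 replicate 3 that pair was at -0.17, the median was 0.72 and 29 pairs exceeded 0.5. Atf4 with Phgdh moved from -0.16 to 0.79. The libraries share group, depth and scaling, so these values carry no test. Among 15815 other genes with a mean of at least 1 CPM, those whose log2 CPM was most like Atf4 were Hmgn1 (r = 0.984), A930003A15Rik (0.964), Aagab (0.964), Utp3 (0.962) and Med6 (0.962). Those most like Asns were Tspan6 (r = 0.979), Tfeb (0.978), Arf6 (0.978), Pon2 (0.976) and Cstb. The closest gene was Renbp for Atf5 (0.989), Bex3 for Ddit3 (0.970), Fars2 for Trib3 (0.942), Man2b2 for Chac1 (0.795 without APB5 replicate 3), Lcp1 for Gdf15 (0.977) and Pgap4 for Psat1 (0.977).

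In the GRCm39 annotation of GENCODE, Atf4 lies at chromosome 15, 80139372 to 80141745 on the plus strand, Chac1 at chromosome 2, 119180757 to 119184866 on the plus strand, Trib3 at chromosome 2, 152179337 to 152191958 on the minus strand, Sesn2 at chromosome 4, 132219335 to 132237815 on the minus strand, Psat1 at chromosome 19, 15882039 to 15924701 on the minus strand and Phgdh at chromosome 3, 98220484 to 98255047 on the minus strand, none of them with an exon shared with another gene. The remaining 4 genes share exonic sequence with genes of the opposite strand, and without a statement that the counting used strand, reads of either could have been taken for the other. They are Ddit3, at chromosome 10, 127124268 to 127132163 on the plus strand (with Mars1, Mbd6 and Gm4189), Atf5, at chromosome 7, 44461680 to 44466082 on the minus strand (with Nup62 and Il4i1), Asns, at chromosome 6, 7671667 to 7728461 on the minus strand (with 1700012J15Rik), and Gdf15, at chromosome 8, 71082038 to 71091537 on the minus strand (with Gm34154).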

How the data were processed

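The authors made poly-A, strand-specific libraries, demultiplexed reads with bcl2fastq 2.20 per the labels and ran the DRAGEN RNA alignment and counting against mm39 (GRCm39) with its NCBI annotation. The deposited values used are raw counts of reads per gene. The version of DRAGEN and its use of strand are not given in the sources used here. The table repeats 3 columns, which were identical and not used. A second table holding the same counts, and the authors' result tables of fold changes and p-values, were not used.

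The software was edgeR 4.0.16 on R 4.3.3, beside DESeq2 1.42.0 and limma 3.58.1. After filterByExpr had dropped sparse genes, libraries were scaled by TMM, and the libraries of the groups compared entered edgeR's quasi-likelihood test (prior count 2) with Benjamini-Hochberg adjustment over all genes tested. Calls used an adjusted p of 0.05, alone or with a log2 fold change of 1. Tests are two-sided. The fits were tested on simulated data. Total counts of 52740545 to 59411044 set the depth.

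The genes described, the pathway and marker lists and the tests were chosen with earlier results of these data known, so the lists carry no test of their own. Named genes are the 10 members, every gene of the 8 pathway lists with an adjusted p of at most 0.05 in a comparison of the design (each list had one), Pdgfrb, Xist, the most abundant marker of lists used, and the genes closest in profile. Some genes that this rule selects are not reported here. The study gives 3 mice in each group, and what replicate numbers mark is not stated. In APB5+Mino against APB5, deviations of same-numbered libraries correlated by 0.134 to 0.182, and of others by -0.157 to 0.0194, so a block on the numbers is given there. Alternatives were other scalings, filters, tools and fits, a replicate block, Xist as covariate, libraries left out, and a length and GC correction.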

Additional observations from a re-analysis of the deposited data

Results flagged for a closer look

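Among 29 genes examined, Sesn2, Bcl2l11, Eif2ak4 and Lonp1 are given because the 2 groups moved in opposite directions under the same contrast, with no overlap of libraries on either side. How many of all genes do so was not counted. For Sesn2, every APB5 library was above every IgG library (log2 fold change 0.45) while every APB5+Mino library was below every IgG+Mino library (-0.26). The interaction, which tests this difference, was -0.70 for Sesn2 (adjusted p 0.144, edgeR's quasi-likelihood test; 0.0148 by DESeq2). For Bcl2l11 the antibody difference was 0.86 without and -0.49 with minocycline, and the minocycline difference was 0.49 after IgG and -0.86 after APB5. Its interaction was -1.34 (adjusted p 0.161 by the same edgeR test). For Eif2ak4 the antibody difference was -0.15 without and 0.58 with minocycline, and the interaction was 0.74 (adjusted p 0.124, edgeR). For Lonp1 the differences were -0.13 and 0.41, and the interaction was 0.55 (adjusted p 0.159, edgeR). These genes were chosen for the pattern that the interaction tests, so its p values are no independent support. No interaction of theirs passed the adjusted threshold in edgeR, where 0.0141% of all genes did, and in DESeq2, where 3.38% did, adjusted p values were 0.0261 for Bcl2l11, 0.00215 for Eif2ak4 and 0.0271 for Lonp1 beside that of Sesn2. The interaction and sex cannot be told apart here, since all IgG and no IgG+Mino libraries had high Xist. Groups of 3 were not searched for single outlying libraries.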

How the results depend on the processing

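Counts of the 10 genes past both thresholds were 0 in the main analysis of each comparison of the design. In APB5+Mino against APB5 the count was 1 without the count filter (1.71% of all genes) or with low-Xist libraries only (2.82%), 2 with DESeq2 (7.55%), with all 12 libraries in 1 fit (7.65%) or with no fold threshold (4.82%), and 3 with the Xist covariate (9.04%), and leaving out 1 library gave 0 to 3. With the Xist covariate it was 3 in APB5 against IgG (5.58%) and 3 for the interaction (4.46%). Leaving out 1 library gave 0 to 1 for the interaction and 0 to 0 elsewhere in the design. In APB5+Mino against IgG+Mino it was 1 with no fold threshold (8.09%). In APB5+Mino against IgG the count of 1 became 0 with at least 10 counts in every library, with all 12 libraries, with the Xist covariate and with the length and GC correction joined to the replicate block, and 8 with no fold threshold (25.8%), and leaving out 1 library gave 0 to 1. Of 1076 log2 fold changes under alternatives, 917 kept direction and side of the adjusted threshold, 54 lost it, 67 gained it and 38 changed sign.

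The changes of sign were these. In APB5 against IgG, leaving out 1 library gave -0.017 to 0.36 for Asns, -0.083 to 0.17 for Psat1 and -0.14 to 1.77 for Phgdh. For IgG+Mino against IgG, the Xist covariate gave 0.28 for Atf5, 0.12 for Ddit3, 0.23 for Asns, 0.30 for Gdf15, 0.0548 for Psat1 and 1.30 for Phgdh, Ddit3 was at 0.0504 with the length and GC correction and 0.0487 with the replicate block added, and leaving out 1 library gave -0.21 to 0.0795 for Ddit3 and -0.15 to 0.00854 for Asns. Against IgG+Mino, Chac1 in APB5+Mino was at 0.0221 with that correction and 0.0411 with the block added, and at -0.22 to 0.0152 with 1 library left out. For the interaction, Atf4 was at 0.28 with the Xist covariate, 0.0333 with the correction and 0.0440 with the block added, and at -0.26 to 0.0494 with 1 library left out. In APB5+Mino against IgG, Sesn2, near 0 throughout, was at 0.0129 with RLE scaling and with DESeq2, 0.00665 with all 12 libraries, 0.00418 with the block, 0.0349 with the Xist covariate, 0.00674 with the correction and 0.0276 with correction and block, and at -0.0967 to 0.0974 with 1 library left out. There, Phgdh was at 0.12 with the Xist covariate, and Chac1 ranged from -0.0828 to 0.18 with 1 library left out. The cause of these changes was not tested.

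With the replicate block, the genes at an adjusted p of 0.05 went from 2 to 0 in APB5+Mino against APB5. In APB5+Mino against IgG+Mino they went from 1 to 5, with 8.09% and 20.2% of all genes. There, deviations of same-numbered libraries correlated by only -0.0241 to 0.200, and not every library correlated best with its own number. The block alone changed no other count of calls among the 10 genes. Joined to the length and GC correction, it moved the count at an adjusted p of 0.05 from 1 to 0 in APB5+Mino against APB5 (3.51% and 0% of all genes). In APB5+Mino against IgG+Mino that count went from 3 to 6 (14.1% and 19.8%). Over all genes, calls past both thresholds in APB5+Mino against APB5 were 336 in the main analysis, 5 by library size only, 1531 by DESeq2, 1623 with all 12 libraries, 1919 with the Xist covariate, 0 with the block and 0 to 1789 with 1 library left out. By library size only the median of all genes was -0.11 there, and that of the 10 genes was -0.96. The filter of 10 counts in every library removed Gdf15 wherever APB5+Mino was compared. Depth limits Gdf15 most, at 9 to 16 counts in APB5+Mino.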
